A study of Mus musculus with 2 samples.

Results

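The genes described here were the inhibitors of DNA binding Id1, Id2, Id3 and Id4, the inhibitory Smads Smad6 and Smad7, the ligand Bmp4, the type I receptor Bmpr1a and the antagonist Grem1, all components or feedback targets of bone morphogenetic protein (BMP) signalling. They were taken by name from a table of 33757 features. Of these 9 genes, 8 had a row in that table, and Grem1 was not analysed here. The cells were mouse NIH3T3 fibroblasts of the NIH3T3-Rev-VNP1-H2B-iRFP line, which reports Nr1d1, a repressor of the circadian clock, through the yellow fluorescent protein Venus and also carries a near-infrared H2B-iRFP. Cultures were grown unsynchronized for about 5 days to 95% confluency, and live single cells were sorted into 384-well plates for full-length RNA sequencing by FLASH-seq. Each of the 2 plates held 4 Venus bins of 96 cells, numbered here from 1 (dimmest) to 4 (brightest). Plate 1 held the high iRFP sort and plate 2 the low iRFP sort, so plate and iRFP cannot be told apart. All cells came from this 1 reporter line under 1 condition, and the series has no treated or mutant group. Nothing in the labels said that the plates came from separate cultures, so p-values measure the spread between these plates only.

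BMP ligands such as Bmp4 bind type I and type II receptors, and the activated receptors phosphorylate Smad1, Smad5 and Smad9, which enter the nucleus with Smad4. Id genes are among the most direct transcriptional targets of this pathway, and their proteins bind E proteins (Tcf3, Tcf4, Tcf12) and keep them and other basic helix-loop-helix factors off DNA. Smad6 and Smad7 are induced by the same signals and block the receptors in turn, while Grem1 captures ligand outside the cell. Smad7 also restrains the related TGF-β branch. Serum in fibroblast medium contains BMP activity, and Id genes are commonly expressed in growing fibroblasts.

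Promoter sequence is shown for the Id genes because 3 of the 4 had an entry among the RefSeq promoters used here (build GRCm38.p6), and because these genes were all lower toward bright Venus in the counts below. Each sequence is the 250 bases before the annotated start, 5′ to 3′ on the gene's strand. Capitals mark matches on either strand to GGCGCC, the GC-rich element to which Smad1 and Smad5 bind, to CAGAC, the Smad-binding element read as GTCTG on the other strand, or to the E-box CACGTG, an element bound by the clock activators and other helix-loop-helix factors. No motif in this search contains another. The Id2 promoter lies at chr12:25096093-25096342 on the minus strand, the Id3 promoter at chr4:136143572-136143821 on the plus strand, and the Id4 promoter at chr13:48260866-48261115 on the plus strand.
Id2: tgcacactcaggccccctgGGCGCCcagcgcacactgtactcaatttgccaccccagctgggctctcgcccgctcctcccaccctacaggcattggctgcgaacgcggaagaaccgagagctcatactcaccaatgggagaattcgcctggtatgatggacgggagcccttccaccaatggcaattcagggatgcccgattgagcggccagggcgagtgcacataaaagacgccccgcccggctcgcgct
Id3: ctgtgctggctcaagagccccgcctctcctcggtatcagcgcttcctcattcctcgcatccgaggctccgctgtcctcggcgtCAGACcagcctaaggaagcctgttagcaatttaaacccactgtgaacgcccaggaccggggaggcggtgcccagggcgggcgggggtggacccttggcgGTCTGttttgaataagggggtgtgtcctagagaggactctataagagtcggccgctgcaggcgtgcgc
Id4: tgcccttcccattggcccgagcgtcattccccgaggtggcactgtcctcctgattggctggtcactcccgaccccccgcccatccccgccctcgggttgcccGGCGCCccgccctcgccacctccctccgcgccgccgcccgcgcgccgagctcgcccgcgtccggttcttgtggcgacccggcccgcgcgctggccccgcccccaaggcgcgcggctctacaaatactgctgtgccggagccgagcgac

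Id2 and Id4 each held 1 GGCGCC match, 231 and 148 bases before their starts, and Id3 held none. GGCGCC occurred in 9.59% of the 32851 promoters of the same length. Id3 held 2 CAGAC matches, 167 and 68 bases before its start, but CAGAC occurred in 42.2% of all promoters. None of these 3 promoters held CACGTG, which occurred in 6.02% of promoters. Among the other members with an entry, Bmpr1a held 1 GGCGCC match, Bmp4 held 1 CACGTG match, Grem1 held 1 GGCGCC and 1 CAGAC match, and these letters were not found in the Smad6 window. The matches describe these windows only. For Id4 and Grem1 the bases just after the RefSeq start were not found unbroken in a GENCODE transcript of that gene. Their windows, and the distance given for Id4, therefore rest on the RefSeq start alone.

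After filtering, 762 of 768 cells remained, 383 on plate 1 and 379 on plate 2, with 151173 to 1618022 counts each. Counts were summed per plate and bin into 8 sums of 76042157 to 86612194 counts, and levels are given as CPM, the counts of a gene scaled to a common total per sum. The cells carried the transcripts of fibroblasts: all 8 fibroblast markers had a count in at least 50% of cells, and they summed to 20119 to 26436 CPM per sum. Markers of other cell types summed to 3.38 to 7.74 CPM for 5 epithelial genes, 0.34 to 0.80 CPM for the 3 endothelial genes with a row, 6.31 to 12.7 CPM for 4 immune genes and 1.37 to 4.81 CPM for the 2 muscle genes with a row. Of these, Epcam had 2 counts and Ptprc 1 count in all cells, while Lyz2 had a count in 53.0% of cells, Cdh1 in 43.4% and Des in 31.2%.

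Per kilobase of exon, Id3 was the most abundant member at 160 ± 9.0 CPM per kb (mean ± SD, n = 2 plates). Id1 followed at 40.7 ± 1.6 CPM per kb and Id2 at 28.2 ± 2.8 CPM per kb. The receptor Bmpr1a stood at 13.4 ± 0.23 CPM per kb and had a count in all 762 cells. Both inhibitory Smads were lower, Smad7 at 2.56 ± 0.058 and Smad6 at 1.76 ± 0.12 CPM per kb, and neighbours in this order down to Smad6 were separated by more than their SD. Id4 averaged 0.64 ± 0.44 CPM per kb. Bmp4 was close to undetected, with 27 counts in 4 of 762 cells, which left it below the count filter and out of the tests. The fibroblasts thus carried transcripts for the receptor and for the feedback targets but almost none for this ligand. Of 11 other ligands listed, 4 had a row, and Bmp6, the most abundant of these, had a count in 5.64% of cells.

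Of the 7 members tested, 5 fell from the dimmest to the brightest Venus bin: Id1, Id2, Id3, Id4 and Smad7. Smad6 was the 1 member with a positive trend, and no alternative called it (lowest adjusted p 0.283 over 14, among them DESeq2 and limma). Across all 18430 genes tested, 15.4% were called, 8.64% lower toward bright Venus and 6.78% higher (edgeR's quasi-likelihood test of a linear trend over the bins, Benjamini-Hochberg adjusted). The members' median trend was -0.17 log2 units per bin step, beside 0.00 for all genes tested. Changes per bin step below are log2 values ± SE.

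Id3, the most abundant of these inhibitors, declined over the bins on both plates. Its levels in bins 1 to 4 were 361.9, 272.5, 270.6 and 199.3 CPM on plate 1, and 383.2, 286.6, 272.5 and 253.8 CPM on plate 2. Each plate was highest in the dimmest bin and lowest in the brightest, and neither sum of bin 1 overlapped the other 6 sums. The trend was -0.24 ± 0.03 per bin (edgeR's quasi-likelihood test, adjusted p = 0.0023). The median cell of plate 1 held 333 CPM of Id3 in bin 1 and 157 CPM in bin 4, and on plate 2 the medians were 305 and 197 CPM.

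Id1 was high in the dimmest bin and level among the other bins. It measured 61.9, 44.7, 45.8 and 42.3 CPM in bins 1 to 4 of plate 1, and 62.8, 36.8, 38.6 and 45.7 CPM on plate 2. The trend was -0.16 ± 0.03 per bin (edgeR's quasi-likelihood test, adjusted p = 0.0182). Without the dimmest bin it was 0.04 per bin, so the decline rested on the step from bin 1 to the rest.

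Id2 had the same shape with more spread between plates. It measured 84.3, 62.0, 53.9 and 56.8 CPM in bins 1 to 4 of plate 1. On plate 2 it measured 93.6, 57.2, 78.7 and 63.2 CPM, with bin 3 well above its neighbours. Both bin 1 sums exceeded the other 6 sums, and the trend was -0.17 ± 0.04 per bin (edgeR's quasi-likelihood test, adjusted p = 0.0357). Without the dimmest bin the trend was -0.02 per bin.

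Smad7, the inhibitory Smad shared by the BMP and TGF-β branches, fell in a graded way. It measured 14.2, 11.7, 10.6 and 10.7 CPM in bins 1 to 4 of plate 1, and 14.2, 12.6, 10.1 and 8.80 CPM on plate 2. The trend was -0.20 ± 0.04 per bin (edgeR's quasi-likelihood test, adjusted p = 0.0130), and it was -0.18 per bin without the dimmest bin, where it no longer passed. Smad6, the inhibitory Smad that acts mainly on BMP signals, measured 5.19, 6.66, 5.32 and 6.56 CPM in bins 1 to 4 of plate 1, and 5.17, 5.30, 5.23 and 5.80 CPM in those of plate 2. Its bins overlapped, and its trend was 0.04 ± 0.05 per bin (edgeR's quasi-likelihood test, adjusted p = 0.633). A difference in trend between Smad6 and Smad7 was not tested.

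Bmpr1a lay just outside the threshold. Its levels were 90.9, 79.1, 80.0 and 86.3 CPM in bins 1 to 4 of plate 1, and 98.1, 80.5, 83.0 and 82.3 CPM on plate 2. Both bin 1 sums were the highest of their plate, and the trend was -0.06 ± 0.02 per bin (edgeR's quasi-likelihood test, adjusted p = 0.0589).

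**Figure D1:**
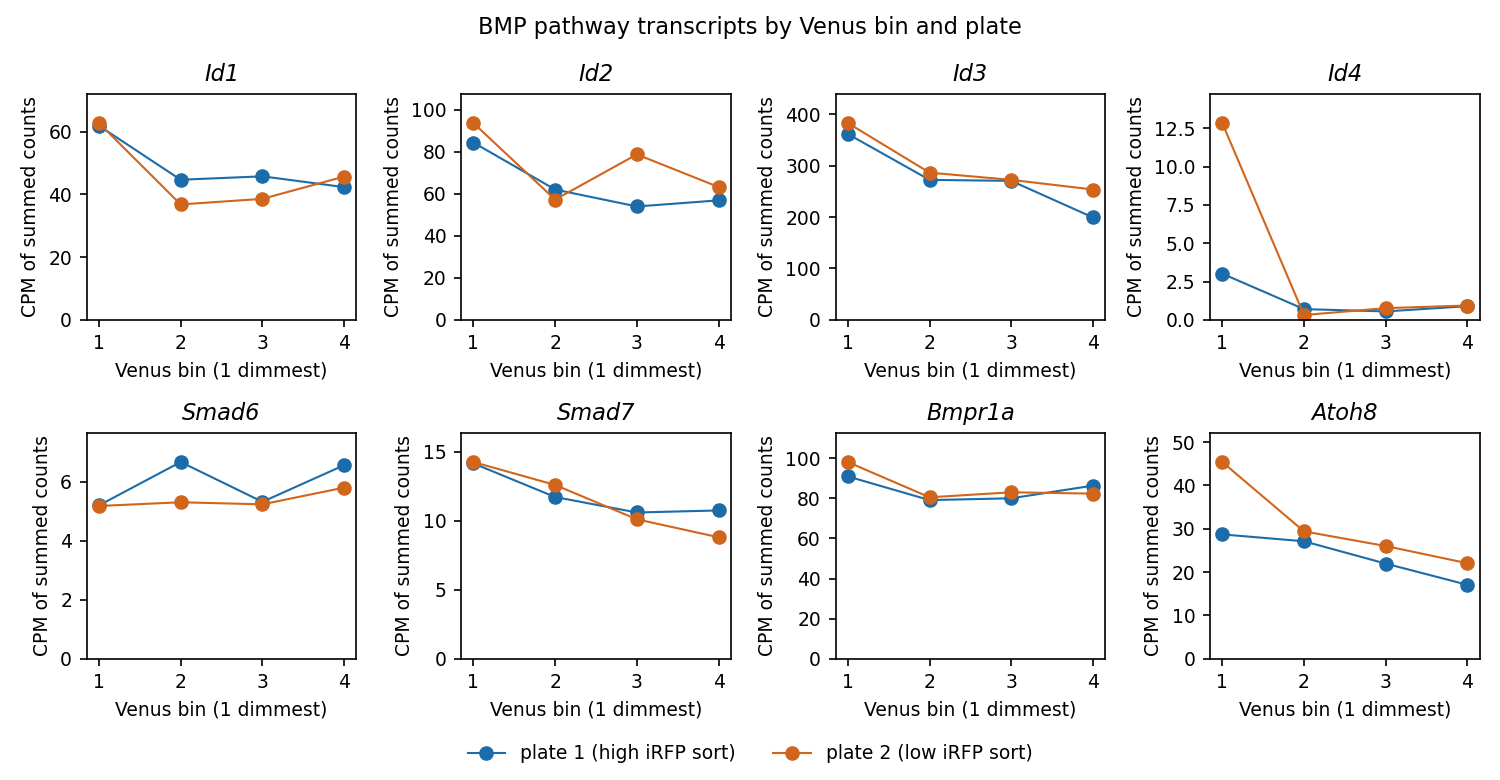
Levels of 7 members and of the BMP target Atoh8, in CPM of the summed counts (vertical axes from 0), against Venus bin for each plate, 1 point per sum. Id1, Id2, Id3, Id4, Smad7 and Bmpr1a were highest in bin 1 on both plates, while Smad6 showed no such order.

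Because several profiles changed mainly between bin 1 and bin 2, bins 2 to 4 were also set against bin 1, a contrast chosen after these values were seen. By that contrast 6 of the 7 members were higher in bin 1, beside 5.10% of all genes tested. Id1 differed by -0.59 ± 0.08 log2 units in bins 2 to 4 against bin 1, Id2 by -0.55 ± 0.11 and Id3 by -0.56 ± 0.07. Smad7 differed by -0.43 ± 0.09 and Bmpr1a by -0.23 ± 0.05. The adjusted p-values of these 5 genes ran from 0.0057 for Id3 to 0.0328 for Smad7 (edgeR's quasi-likelihood test). In CPM, 6 members had both bin 1 sums above all 6 other sums, as had 7.86% of genes tested. The test for any difference among the 4 bins called Id1, Id3 and Id4, with 8.37% of all genes called. The Id1 call of that test was lost without the plate block.

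The median summed G2/M list measured 833, 834, 833 and 976 CPM in bins 1 to 4 of plate 1. On plate 2 it measured 874, 874, 895 and 996 CPM, so most of its rise lay between bins 3 and 4. Among the 380 cells below their plate median for that list, Id3 alone remained below the threshold (adjusted p = 0.0260 by edgeR's quasi-likelihood test). There the trends were -0.08 per bin for Id1, -0.09 for Id2, -0.85 for Id4 and -0.19 for Smad7. Over all cells they were -0.16, -0.17, -0.88 and -0.20 in the same order. The setting kept fewer cells, and 827 of all genes tested there were called, beside 2843 over all cells. Id4 and Smad7 thus lost their calls with a like trend, while the trends of Id1 and Id2 were also smaller in size. The Id3 trend was -0.18 per bin in these cells, beside -0.24 over all cells. The part of cell cycle genes in the result was not tested further. Over 14 alternatives the adjusted p ran from 6.02e-05 to 0.753 for Id1, 0.000181 to 0.894 for Id2, 6.48e-18 to 0.0597 for Id3, 3.99e-06 to 0.907 for Id4 and 0.000258 to 0.148 for Smad7.

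Id4 differed from the other Id genes in that a few cells carried most of its counts. In bins 1 to 4 it measured 3.01, 0.70, 0.55 and 0.89 CPM on plate 1, and 12.8, 0.31, 0.76 and 0.93 CPM on plate 2. The trend was -0.88 ± 0.20 per bin (edgeR's quasi-likelihood test, adjusted p = 0.0236). Of 1583 Id4 counts, 78.7% lay in bin 1, whereas bin 1 held 32.0% of Id1 counts, 31.4% of Id2 counts and 31.4% of Id3 counts. Id4 had a count in 110 of 762 cells, and the top 10 cells, all in bin 1, held 71.0% of its counts. The top 10 cells held 7.09% of the counts of Id1, 7.16% of Id2 and 4.88% of Id3.

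At a level of at least 20 CPM, a threshold chosen after the values were seen, Id4 was present in 12 cells, of which 3 lay in bin 1 of plate 1, 8 in bin 1 of plate 2 and 1 in another bin. The highest cell held 336 Id4 counts, or 476 CPM, at a total of 705525 counts. Totals of the 12 cells ran from 627853 to 1042158 counts, close to the middle of the depth range. Their other Id transcripts varied widely, with Id3 at a median of 340.5 CPM and no Id2 count in 3 of them.

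Of these 12 cells, 10 had no count of the YFP feature, the transcript of the Venus reporter. Over all passing cells 41 lacked a YFP count, 40 of them in bin 1 (23 on plate 1 and 17 on plate 2). These 40 cells held 4.90% of all counts and 69.2% of the Id4 counts. In them Id4 measured 11.9 CPM on plate 1, and 64.0 CPM on plate 2. In the bin 1 cells with a YFP count it measured 0.325 and 2.02 CPM on plates 1 and 2, and in bins 2 to 4 it measured 0.707 and 0.677 CPM. Most of the excess in bin 1 lay in the cells without the reporter transcript. When all cells without a YFP count were left out, the Id4 trend was -0.06 per bin and did not pass (edgeR's quasi-likelihood test, adjusted p = 0.907).

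**Figure D2:**
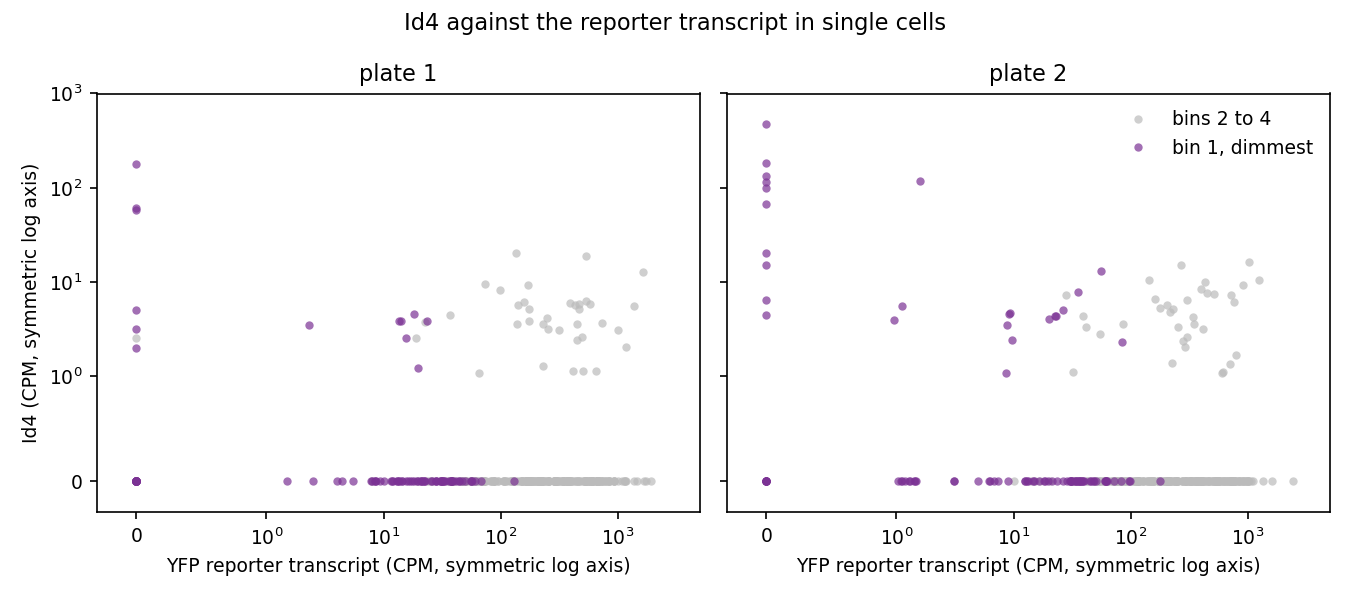
Id4 against the YFP reporter transcript in each cell, both in CPM on symmetric log axes, with bin 1 cells in purple and bins 2 to 4 in grey, 1 panel per plate. Most cells with Id4 above 20 CPM sit at a YFP level of 0.

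The bin 1 cells without a YFP count carried the iRFP reporter and the fibroblast markers. Their iRFP reporter transcript stood at 45.2 CPM on plate 1 and 19.1 CPM on plate 2, beside 44.2 and 17.7 CPM in the bin 1 cells with a YFP count. Their fibroblast markers summed to 22752 and 18539 CPM, beside 25485 and 25174 CPM. Nr1d1 was lower in them, at 21.9 and 31.0 CPM beside 72.7 and 76.6 CPM, and bins 2 to 4 held 654 and 644 CPM. Dbp, an output gene of the clock, was higher in them, at 33.4 and 34.4 CPM beside 12.6 and 16.0 CPM, but bins 2 to 4 held 47.1 and 54.7 CPM. The summed G2/M list of the cells without a YFP count stood at 1363 and 1162 CPM. In the bin 1 cells with one it stood at 1383 and 2321 CPM. The summed muscle markers were 3.06 and 13.5 CPM, beside 2.79 and 2.98 CPM. The part of these differences in the Id4 level was not tested.

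Id1, Id2, Id3 and Smad7 did not follow the YFP split in the way Id4 did. Id1 measured 61.6 and 73.9 CPM in the bin 1 cells without a YFP count (plates 1 and 2) and 62.0 and 60.4 CPM in those with one. Id3 measured 313 and 390 CPM without and 377 and 382 CPM with a YFP count. Id2 was lower in the cells without a YFP count, at 45.8 and 58.2 CPM against 96.0 and 101 CPM. In the bin 1 cells with a YFP count these genes still exceeded bins 2 to 4 of the same plate, by 1.40- and 1.50-fold for Id1, 1.67- and 1.51-fold for Id2, 1.51- and 1.41-fold for Id3 and 1.39- and 1.38-fold for Smad7. Without the cells lacking a YFP count the trends were -0.16 per bin for Id1, -0.22 for Id2, -0.25 for Id3 and -0.23 for Smad7, and all 4 passed (edgeR's quasi-likelihood test, adjusted p = 0.0199, 0.0186, 0.0031 and 0.0110).

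**Figure D3:**
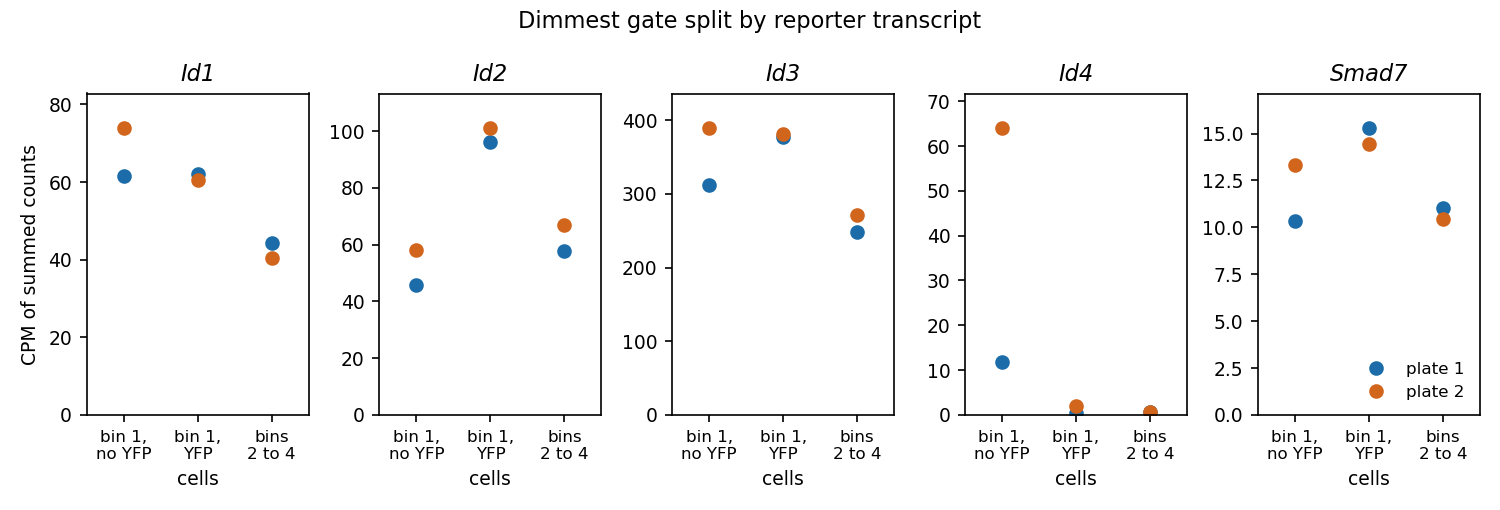
Levels of 5 members in CPM of summed counts (vertical axes from 0) for bin 1 cells without a YFP count, bin 1 cells with one, and cells of bins 2 to 4, 1 point per plate. Id4 is high only in the first class on these axes, Id2 is highest in the second, and Id1 and Id3 are above bins 2 to 4 in both.

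Other genes of the BMP pathway were counted from 5 lists of 47 genes, of which 34 had a row and 28 were tested. Of these 28, 2 rose toward bright Venus and 5 fell, beside 6.78% and 8.64% of all genes, and their median trend was -0.02 per bin beside 0.00 for all genes, a median that does not depend on the size given to the change of Fst below. Among the transducers and their regulators 3 of 9 fell: Smad5 by 0.22 per bin, the Smad corepressor gene Skil by 0.11 and Smad1 by 0.09. Smad5, which carries the BMP signal to the nucleus, fell from 53.2 to 38.1 CPM between bins 1 and 4 on plate 1 and from 63.5 to 37.1 CPM on plate 2 (edgeR's quasi-likelihood test, adjusted p = 0.0040). Smad1 only just passed the same test (adjusted p = 0.0494). Tob1, the most abundant of this list at 101 ± 0.66 CPM per kb, had a trend of -0.02 per bin. Of the 8 other receptors and co-receptors tested, 0 were called by edgeR's quasi-likelihood trend test, 0 had an unadjusted p under 0.05 there, and DESeq2 and limma also called 0. Rgma, the most abundant of them at 22.5 ± 1.6 CPM per kb, had a trend of -0.02 per bin.

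The antagonists moved in both directions. Nbl1, which encodes the secreted antagonist DAN, fell by 0.33 per bin, from 49.6 to 25.3 CPM on plate 1 and from 56.0 to 32.6 CPM on plate 2 (edgeR's quasi-likelihood test, adjusted p = 0.0028). Twsg1, which encodes a secreted BMP-binding modulator, rose by 0.12 per bin, from 192 to 267 CPM on plate 1 and from 216 to 290 CPM on plate 2 (adjusted p = 0.0062, same test). Fst, which encodes follistatin, had no count in any of the 190 cells of bin 1 and 290 counts in 33 of the 572 other cells. A count of 0 there allows a share of up to 1.58% of cells with a count, which does not limit the share of cells expressing the gene. With bin 1 set to a floor of 3 counts over the group, the pooled Fst level of bins 2 to 4 was 30.8-fold higher. This ratio is no lower limit, because it takes reads as independent and few cells held most of them. Fst passed the trend test (edgeR's quasi-likelihood test, adjusted p = 0.0045), and its 10 highest cells held 71.0% of its counts. Only bins 2 to 4 held the counts that took Fst past the count filter, so its call is no separate support for the difference. The Fst call was lost in the additive linear model (adjusted p = 0.276, edgeR) and without bin 1 (adjusted p = 0.891), and its adjusted p ran from 6.58e-05 to 0.891 over 13 alternatives.

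Among the other targets tested, Atoh8 fell and Gata2 did not pass. Atoh8, a helix-loop-helix transcription factor gene that responds to BMP signals, measured 28.7, 27.1, 22.0 and 17.1 CPM in bins 1 to 4 of plate 1, and 45.4, 29.4, 26.0 and 22.0 CPM on plate 2. It stepped down at every bin on both plates, with a trend of -0.31 ± 0.04 per bin (edgeR's quasi-likelihood test, adjusted p = 0.0035).

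The E proteins, the partners that Id proteins bind, were tested as 3 genes. Tcf3 was the most abundant per kilobase of exon, at 30.8 ± 2.0 CPM per kb. Before division by length, Tcf3 measured 118 and 130 CPM on plates 1 and 2, and Tcf4 measured 116 and 137 CPM. Tcf3 fell by 0.10 per bin and Tcf4 by 0.16, while Tcf12 had a trend of 0.00 (edgeR's quasi-likelihood test, adjusted p = 0.0098, 0.0320 and 0.968). In the TGF-β branch, 1 of 12 genes rose and 4 fell, with a median trend of -0.06 per bin. For these lists too the background is 6.78% of all genes higher and 8.64% lower, with a median of 0.00. The ligand gene Tgfb2 rose by 0.35 per bin and Tgfb3 fell by 0.17, the receptor gene Tgfbr1 fell by 0.17, and the target genes Ccn2 and Pmepa1 fell by 0.36 and 0.26. Ccn2 went from 85.4 to 33.0 CPM between bins 1 and 4 of plate 1 and from 57.9 to 29.3 CPM on plate 2. Tgfbi, the most abundant gene of this list at 107 ± 8.0 CPM per kb, had a trend of 0.14 per bin that did not pass (adjusted p = 0.0768, same test).

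**Figure D4:**
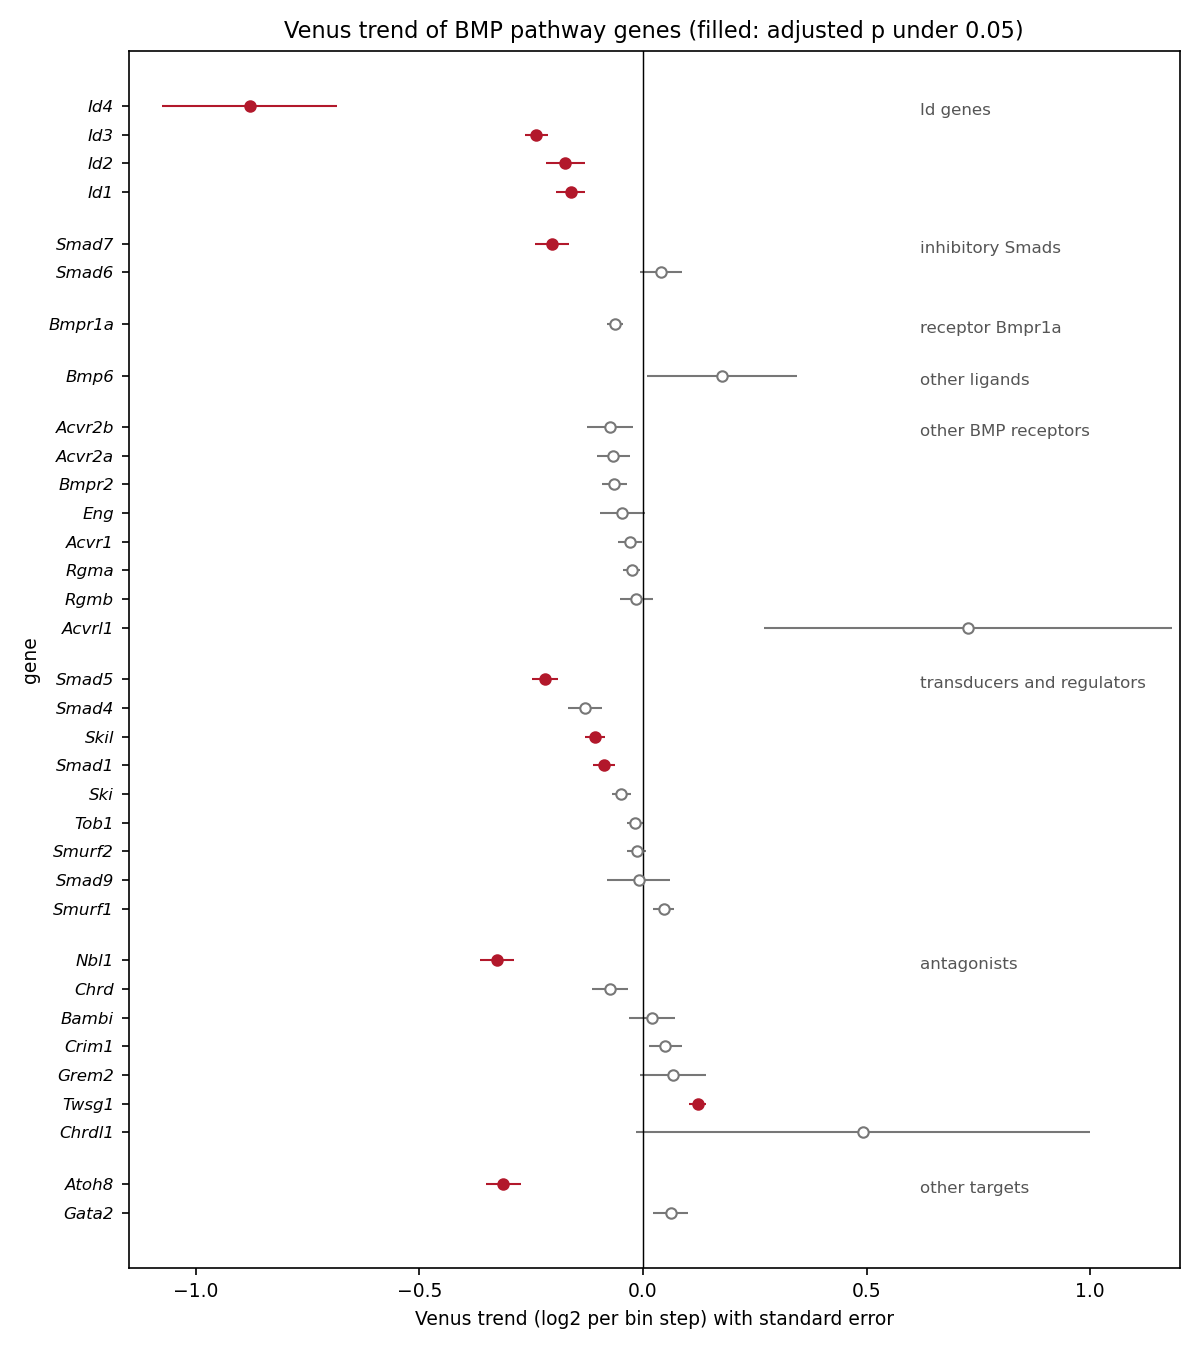
Venus trend in log2 units per bin step, with the standard error as a bar, for the 7 tested members and 27 of the 28 tested genes of the BMP lists. Filled points passed an adjusted p of 0.05; Fst is left out because its fitted slope depends on the count added to a bin at 0. The 4 Id genes, Smad7, Smad5, Nbl1 and Atoh8 lie left of 0, and Twsg1 is the filled point on the right.

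Across single cells the Id genes other than Id4 varied together. The Spearman correlation between Id1 and Id2 was 0.42 over the 383 cells of plate 1 and 0.34 over the 379 cells of plate 2. Between Id2 and Id3 it was 0.42 and 0.41, and between Id1 and Id3 0.32 and 0.27. The median of these 3 pairs was 0.38 ± 0.057 (mean ± SD, n = 2 plates), and 0.35 when cells were ranked within their Venus bin, so the relation was present among cells of the same bin. Cells of a plate share its library preparation. Their totals had a Spearman correlation of at most 0.07 with Id1, Id2 or Id3 on either plate.

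Each member with a count in at least 50% of cells on both plates was compared with up to 8846 named genes that were seen as widely and had log2 CPM averaging 3 or more, and genes were ranked by the smaller of the 2 plates' correlations. Atoh8 was the gene most like Id2 (0.42 and 0.42), followed by Id3 and Id1. Id2 was the gene most like Id3, followed by Shisa4, Mmp14, Dpysl2 and Timp3 with smaller values of 0.32 to 0.35. For Id1 the first was Bcl2l1, an anti-apoptotic gene (0.39 and 0.38), and the second was Id2, followed by Ccn1, Anxa5 and S100a10. The Id genes thus ranked among each other's nearest genes, except that Id1 was number 31 for Id3.

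The Smads and the receptor showed weaker relations. Lox, Amotl2, Tpm1, Cacna1a and Acta2 were most like Smad6, with smaller values from 0.27 down to 0.21. Tnfrsf12a, Amotl2, Plk2, Fscn1 and Skil were most like Smad7, from 0.23 down to 0.17. Top2b led for Bmpr1a at 0.17, ahead of Fndc3a, Plod2, Furin and Nisch. The correlation between Smad6 and Smad7 was 0.14 on plate 1 and 0.10 on plate 2.

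Id3 also had a negative relation to the summed G2/M list, with a Spearman correlation of -0.21 on plate 1 and -0.24 on plate 2, which Id1 (0.08 and 0.12) and Id2 (-0.03 and -0.07) did not share in size. With Venus fluorescence the correlation was -0.28 and -0.19 for Id3, -0.17 and -0.12 for Id1 and -0.15 and -0.07 for Id2. Ranked within bins, the correlation between Id3 and Venus fluorescence was 0.05 and -0.10. With the clock output gene Dbp, the correlation over all cells of a plate was weak. It was -0.19 and -0.13 for Id1, -0.09 and -0.05 for Id2 and -0.07 and -0.01 for Id3. Ranked within bins, the correlation with Dbp was -0.10 and -0.12 for Id1, and 0.05 and -0.04 for Id2. For Id3 it was 0.16 and 0.12 within bins, opposite in sign to the values over all cells on both plates.

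**Figure D5:**
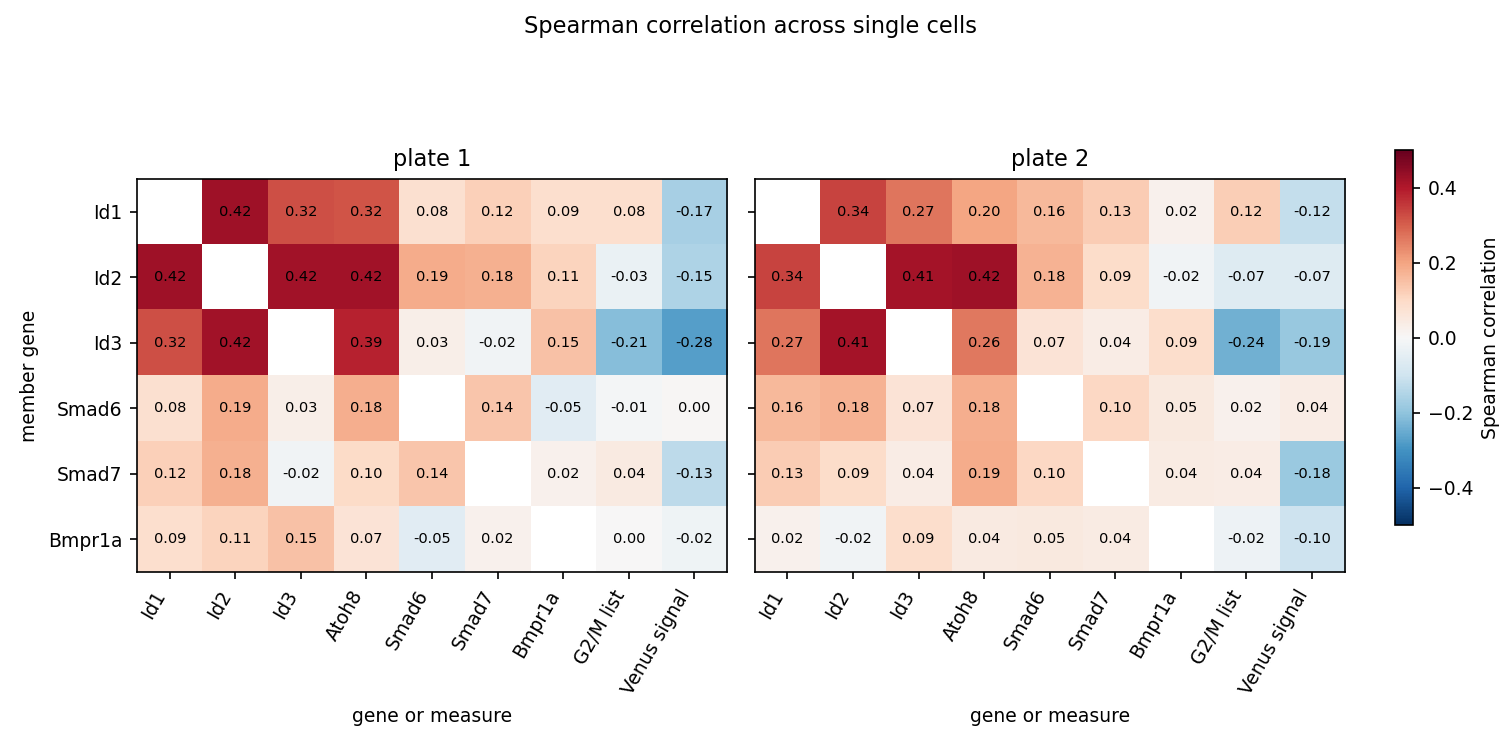
Spearman correlation across cells between 6 members (rows) and members, Atoh8, the summed G2/M list and recorded Venus fluorescence (columns), 1 panel per plate with red for positive values. Id1, Id2, Id3 and Atoh8 form the block of high values on both plates, while Smad6, Smad7 and Bmpr1a are paler.

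The spread over cells also separated the Id genes from the rest. The coefficient of variation of CPM was 1.04 for Id1, 1.03 for Id2 and 0.717 for Id3, beside medians of 0.518, 0.447 and 0.334 over genes whose mean lay within 25%, as a ratio. Lower values were found for 97.4%, 98.1% and 94.7% of those genes. Id4 had a coefficient of 8.16 beside a median of 1.73. Smad6 (1.17 beside 1.28), Smad7 (0.950 beside 0.922) and Bmpr1a (0.444 beside 0.419) lay near the middle. Id1 ran from 0 to 423 CPM over cells with a median of 32.2, Id2 from 0 to 517 with a median of 48.5, and Id3 from 0 to 1268 with a median of 244.

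Between the plates, which carried the opposite iRFP sorts, most members differed little. The ratio of plate 1 to plate 2 was 1.06 for Id1, 0.871 for Id2, 0.924 for Id3, 1.11 for Smad6, 1.03 for Smad7 and 0.976 for Bmpr1a, while the iRFP transcript itself had a ratio of 2.21. Id4 was lower on plate 1, with a ratio of 0.341 and an exact 95% interval of 0.304 to 0.382 that covers counting error only. This difference lay in bin 1, at 3.01 CPM on plate 1 and 12.8 CPM on plate 2. Bins 2 to 4 held 0.707 and 0.677 CPM of Id4. Of the 1181 Id4 counts of plate 2, 1017 lay in bin 1, and 1 cell held 336 of them. Exact 95% intervals of counting error also excluded equal levels for Id1, Id2, Id3, Smad6 and Bmpr1a, with 0.855 to 0.887 for Id2. With 1 plate per sort no test was made, and PCR reads are not independent molecules.

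Id4, Bmp4 and Bmpr1a overlap antisense or other transcripts on the opposite strand in the GENCODE annotation used for names (A330033J07Rik and Gm49291 at Id4, Gm15217 and Gm15222 at Bmp4, Gm17110 at Bmpr1a). Use of strand in counting was not given in the sources used here, so reads of these pairs cannot be told apart.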

How the data were processed

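RNA of 768 single cells (1 line, 2 plates) was measured by FLASH-seq. Values of the deposited table are whole-number counts for each gene in each cell. Per the submitters' processing notes, the authors used STAR 2.7.11a, SAMtools, bedtools, HTSeq and the GRCm39 (mm39) build; the role of each, strand use and molecular identifiers were not given in the sources used here. The deposited sorting record held fluorescence intensity per cell in arbitrary units, and it gave the Venus gate, ordered here by median intensity within each plate. A gate took up 6 adjacent well columns, the same ones on either plate, so gate and well position cannot be told apart.

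The filter on cells (1000 genes or more, 0.1 of the plate's median total or more, mitochondrial share up to 25%) left out 6. Cell totals of 151173 to 1618022 limit single-cell values, and sums of at least 76042157 counts carry the tests. Features without a symbol held 1.07% of counts. No cell columns were identical. Passing cells were summed per plate and bin, and cells were not replicates. Bin and plate were fitted by the quasi-likelihood test of edgeR 4.0.16 (R 4.3.3) with TMM scaling and filterByExpr, with 3 residual degrees of freedom. Adjustment was by Benjamini-Hochberg over 18430 genes with a threshold of 0.05. The trend weighted the bins -3, -1, 1 and 3, divided by 10. The plate served as the replicate block. The planned test of the iRFP sort was not made because each sort filled 1 plate. On simulated data for this trend and 18430 genes, 46 of 100 genes changed by 0.2 and 55 of 100 changed by 0.4 log2 units per bin were recovered, with 10 false calls.

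Alternatives used DESeq2 1.42.0, limma 3.58.1 (log2 of CPM plus 0.5), other filters and scalings, thinning to 300000 counts and omission of plates. Leaving out a bin or the cells without a YFP count, setting each gene's highest cell in a sum to the next highest, and setting bin 1 against the rest, were chosen after seeing the data. Exon lengths, symbols and overlaps came from GENCODE M21, and promoters from RefSeq (GRCm38.p6); no coordinates of the authors' build were used. Members and gene lists were chosen with earlier results of these data known. Named were all members, list genes with an adjusted p under 0.05, the most abundant gene per kilobase of each list, and the 5 genes most correlated with each member (mean log2 CPM of at least 3, a count in at least 50% of cells on both plates).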

Additional observations from a re-analysis of the deposited data

How the results depend on the processing

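Over the trend test, 2843 genes were called with the plate as replicate block. The count was 1683 with no replicate block, 827 in cells under the plate median of the G2/M list, 1858 with an additive linear model, 1140 without Venus bin 1 and 358 without Venus bin 4. Higher calls made up 44.0% of calls, but 57.7% with library totals in place of TMM and 57.4% with limma on mean CPM; the median of all genes moved by under 0.02. Of the 5 members called lower, 1 passed in the low G2/M cells, 2 in the additive linear model, 0 without bin 1 and 2 without bin 4.

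With no replicate block the pairing of the plates mattered for Id2, whose trend of -0.17 no longer passed (adjusted p = 0.0594, edgeR), and for the any-difference call of Id1 (adjusted p = 0.0731, from 0.0254). No other call of a member was lost without the block. In the low G2/M cells the trends no longer passing were -0.078 for Id1, -0.092 for Id2, -0.85 for Id4 and -0.19 for Smad7. In the additive linear model they were -0.17 for Id1, -0.18 for Id2 and -0.99 for Id4. Without bin 1 they were 0.036 for Id1 and 0.41 for Id4, both reversed in sign, and -0.023 for Id2, -0.18 for Id3 and -0.18 for Smad7, while Bmpr1a reversed to 0.016. Without bin 4 they were -0.22 for Id2, -1.72 for Id4 and -0.23 for Smad7, with fewer sums in the fit. Without cells lacking a YFP count Id4 stood at -0.056. Bmpr1a passed at -0.073 in that setting, at -0.073 for bin 4 against bin 1 and at -0.061 with DESeq2.

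For any difference over the bins, 1542 genes were called, and 2661 with no filter, 490 with no replicate block, 256 in the low G2/M cells, 378 without bin 1, 133 without bin 4 and 3641 with DESeq2. Of the members 3 were called, and 5 with no filter, 5 with cells thinned to 1 depth, 0 in the low G2/M cells, 0 without bin 1 and 6 with DESeq2. The median Id correlation was 0.35 to 0.38 in its 3 alternatives. With 1 plate left out no residual degrees of freedom remained, so those trends are values with no test: -0.19 to -0.14 for Id1, -0.22 to -0.13 for Id2, -0.28 to -0.19 for Id3, -1.01 to -0.58 for Id4 and -0.25 to -0.16 for Smad7. Causes of these changes were not tested.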
